A study of Mus musculus with 9 samples.

Results

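Hypothalamus of CD-1 mouse embryos (an outbred stock) at E12.5, counted in days of embryonic development, was divided by the study into 3 bands running outward from the ventricle, and the middle band, the medial mantle zone, is described here against the bands on either side. It is represented by 3 of the 9 libraries, chosen by their labels. The flanks are the ventricular zone, next to the ventricle, and the lateral mantle zone, farthest from it, with 3 libraries each. The labels name no treatment or mutation for any group. All libraries were made from mRNA of tissue microdissected from chilled coronal slices and sequenced as 100 bp pairs. The design text states a search for regional genes. For each gene the middle contrast was taken: the medial mean minus the midpoint of the means of both flanks, on log2(FPKM + 1), where FPKM is a gene's fragment count divided by its transcript length and by the library's mapped fragments. The contrast is positive for a gene that peaks in the middle band and negative for one that dips there. It also departs from 0 when a graded gene lies nearer to 1 flank than to the other. Nothing in the labels ties the libraries to separate embryos or litters, so p-values measure only the spread between these libraries, which may be technical. In tissue of mixed cells, fewer cells of a type and less RNA per cell cannot be told apart.

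In the embryonic neural tube, radial glia and other progenitors divide beside the ventricle, and their neuronal daughters migrate outward into the mantle. Neurons of the hypothalamus are sorted early by homeodomain and LIM-homeodomain transcription factors, proteins that bind DNA and set regional and transmitter identity. Members of the Dlx family and their partners accompany the formation of GABAergic neurons, which release the inhibitory transmitter GABA. Other factors, such as Nkx2-2, Vax1, Hmx2 and Hmx3, are known from medial and tuberal parts of the hypothalamus, and Lmx1b, Foxa1 and Barhl1 from its mamillary and submamillary parts.

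The number of fragments implied by the spacing of low values was 4378434 to 8870061 in 7 libraries, against 260303 in replicate 3 of the ventricular zone and 544435 in replicate 3 of the medial mantle zone. A single fragment on a 1 kb transcript was thus worth 3.84 FPKM in the first of these shallow libraries and 1.84 in the second, against 0.113 to 0.228 in the others. Of the tested genes, 2365 and 1146 were listed at 0 in them, against 49 to 195 elsewhere. Ventricular zone replicate 2 held the most neuronal signal of its zone: its 24 pan-neuronal genes summed to 3147 FPKM, against 1485 and 1165 in replicates 1 and 3 and 2912 to 3667 in the medial libraries. As a check of the labels, 23 mitotic genes summed to 396 to 1288 FPKM in the ventricular, 271 to 590 in the medial and 22.2 to 43.1 in the lateral libraries.

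Few genes passed the test in the middle band. Of 14004 genes, 5 were higher than the midpoint of the flanks (0.0357% of those tested) and 1 was lower (0.00714%) at an adjusted p under 0.05 in limma. The 5 were Dlx1, Lhx6, Lhx8, Nkx2-2 and Ptx3, and the 1 was Avp. At an unadjusted p under 0.05 the numbers were 845 (6.03%) and 247 (1.76%). Against the lateral mantle zone alone 501 genes were higher (3.58%) and 76 lower (0.543%). Against the ventricular zone alone 0 genes passed in limma (0%), with 1661 at an unadjusted p under 0.05. So 0 genes passed against both flanks, with 100 higher and 21 lower in both at an unadjusted p under 0.05. The differences from the flanks share the medial libraries and are not independent of each other.

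By shape alone, the medial mean lay above both flank means in 4031 genes (28.8%), below both in 2182 (15.6%) and between them in 7791 (55.6%). With quantile normalization 3026 genes lay above both and 3220 below both, and with trimmed mean scaling 2850 and 3122. Which shape was more common thus depended on the scaling. The shares of all genes given below are of the unscaled values. All 3 medial libraries lay above all 6 flanking libraries in 306 genes (2.19%) and below all 6 in 65 (0.464%). The median contrast over all genes was 0.10, with quartiles of -0.11 and 0.30 and a median standard error of 0.27. The count of calls rested on single libraries. It was 32 without ventricular zone replicate 3, 3 without its replicate 2 and 1 without its replicate 1. It was 0 without any one of the medial libraries, 1 without lateral replicate 1, 0 without lateral replicate 2 and 7 without lateral replicate 3, against 6 with all 9 libraries.

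**Figure D1:**
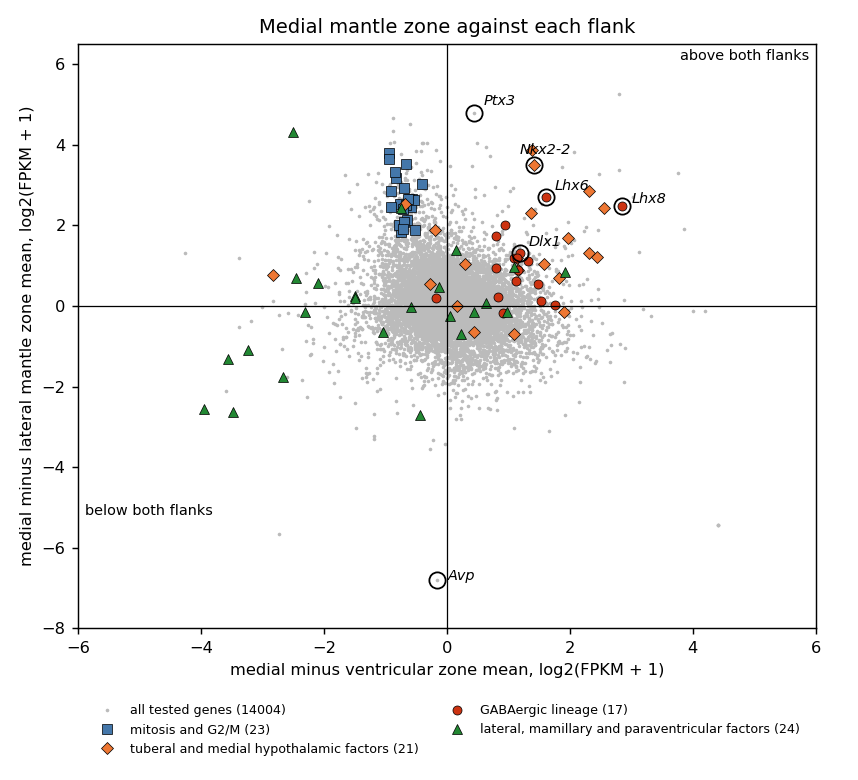
Each grey point is 1 of the 14004 tested genes, placed by the medial minus ventricular difference (horizontal) and the medial minus lateral difference (vertical), both of zone means on the log2(FPKM + 1) scale. Members of 4 gene lists are coloured, and the 6 genes past the threshold of the middle contrast are ringed. Most GABAergic and tuberal members lie in the upper right, above both flanks, while all 23 mitotic genes lie in the upper left, below the ventricular and above the lateral mean.

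Dlx1, a homeodomain factor of GABAergic neurons, measured 96.6, 82.7 and 105.0 FPKM across the ventricular libraries, 236, 202 and 211 in the medial and 86.99, 94.1 and 80.4 in the lateral libraries. The flanks were level with each other and every medial library stood well clear of them. The middle contrast was 1.24 ± 0.12 (SE) on the log2 scale, adjusted p = 0.0171. The separate differences were 1.19 against the ventricular zone (adjusted p = 0.0624) and 1.30 against the lateral mantle zone (adjusted p = 0.0023). Dlx1 passed under 12 of 20 alternative settings, and its contrast ranged from 1.14 to 1.30 over them. The gene lies on chromosome 2 (71528113 to 71533981, plus strand, GRCm38), and exons of its antisense neighbour Dlx1as overlap it. The sources used here do not say whether strand was used in counting, so reads of the pair cannot be told apart.

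Lhx6, a LIM-homeodomain factor of migrating GABAergic neurons, measured 4.45, 3.104 and 3.47 FPKM in the ventricular, 14.4, 12.1 and 12.9 in the medial and 1.003, 0.797 and 1.86 in the lateral libraries. The medial libraries were the 3 highest, followed without overlap by the ventricular and then the lateral ones. Its contrast was 2.15 ± 0.24, adjusted p = 0.0261. Against the ventricular zone alone the difference of 1.60 did not pass (adjusted p = 0.158), and against the lateral zone 2.70 did (adjusted p = 0.00181). Lhx6 passed under 10 of 20 settings. It lies on chromosome 2 (36081953 to 36105408, minus strand), where exons of Gm27953 overlap it on the same strand.

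Lhx8, a LIM-homeodomain factor known from basal forebrain neurons, measured 0.815, 0.151 and 0 FPKM in the ventricular, 6.69, 9.75 and 8.43 in the medial and 1.38, 0 and 0.903 in the lateral libraries. It was close to absent from both flanks, where 2 libraries listed it at 0, one of them the shallow ventricular replicate 3. Apart from lateral replicate 1 it reached 1 FPKM only in the medial libraries, so it entered the test through them. The contrast was 2.66 ± 0.34, adjusted p = 0.0443. Lhx8 passed under 5 of 20 settings, with adjusted p from 0.00178 to 0.356, and its contrast was 4.42 with a pseudocount of 0.1. It lies on chromosome 3 (154306294 to 154330659, minus strand).

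Nkx2-2, a homeodomain factor induced by Hedgehog signalling, measured 26.9, 10.4 and 23.9 FPKM in the ventricular, 54.04, 49.1 and 53.98 in the medial and 2.93, 5.95 and 2.905 in the lateral libraries. Its medial libraries agreed closely and lay above all others, while its ventricular libraries spread from 10.4 to 26.9. The contrast was 2.46 ± 0.31, adjusted p = 0.0428, and it passed under 6 of 20 settings. Against the ventricular zone alone the difference was 1.42 (adjusted p = 0.33). The gene lies on chromosome 2 (147177546 to 147194243, minus strand), and exons of the antisense gene Nkx2-2os overlap it. Nkx2-2 is also expressed in oligodendrocyte precursors. Of the 7 markers of those cells, Olig2 measured 36.2, 48.1 and 44.2 FPKM in the ventricular and 20.1, 7.02 and 16.8 in the medial libraries. In the lateral ones it measured 1.82, 0.470 and 1.02. Pdgfra measured 0.315, 0.271 and 0.544 in the medial libraries. The 7, Nkx2-2 included, summed to 68.6 to 106 in the medial, 83.1 to 105 in the ventricular and 9.13 to 11.4 in the lateral libraries. Nkx2-2 itself supplied 54.04, 49.1 and 53.98 FPKM of the medial sums of 106, 68.6 and 87.7. The sums thus say little of the other markers.

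The sequences before the start sites of these 4 genes are printed because they lead the peak. They are the 250 bases before the RefSeq start on GRCm38.p6, 5′ to 3′ on the strand of the gene, and CAGCTG, an E-box that reads the same on both strands, is in capitals. Lhx6 has 3 listed starts, of which the first is shown. The gene positions given above are GENCODE extents and reach beyond some RefSeq starts. By them the Dlx1 and Nkx2-2 windows lie inside the gene, and the Lhx8 window lies partly inside it.
Lhx8, chr3:154330561-154330810, minus strand: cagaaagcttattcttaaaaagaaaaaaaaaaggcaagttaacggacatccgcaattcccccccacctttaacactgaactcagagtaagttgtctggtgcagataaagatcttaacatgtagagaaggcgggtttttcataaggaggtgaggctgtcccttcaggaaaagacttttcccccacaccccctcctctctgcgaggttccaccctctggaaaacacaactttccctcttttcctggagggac
Lhx6, chr2:36105409-36105658, minus strand: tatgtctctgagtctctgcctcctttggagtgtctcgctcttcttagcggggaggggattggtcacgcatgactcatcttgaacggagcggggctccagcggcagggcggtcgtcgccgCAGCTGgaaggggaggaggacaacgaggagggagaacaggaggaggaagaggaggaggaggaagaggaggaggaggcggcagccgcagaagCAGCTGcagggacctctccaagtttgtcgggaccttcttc
Nkx2-2, chr2:147186403-147186652, minus strand: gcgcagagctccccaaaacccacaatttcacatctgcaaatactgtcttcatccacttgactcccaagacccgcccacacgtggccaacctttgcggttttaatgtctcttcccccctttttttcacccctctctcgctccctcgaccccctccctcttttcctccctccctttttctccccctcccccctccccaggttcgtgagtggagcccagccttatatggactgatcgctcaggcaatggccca
Dlx1, chr2:71529195-71529444, plus strand: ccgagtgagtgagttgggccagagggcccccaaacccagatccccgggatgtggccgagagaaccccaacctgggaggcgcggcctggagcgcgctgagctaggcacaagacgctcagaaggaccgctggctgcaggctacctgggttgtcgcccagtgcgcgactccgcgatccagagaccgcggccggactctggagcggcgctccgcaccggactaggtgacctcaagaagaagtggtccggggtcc

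Of these 4, only the Lhx6 window holds CAGCTG, at bases 120 and 211 counted from its 5′ end. It is held by 13.0% of all 32851 RefSeq windows of that length and by 11.45% of 9482 tested genes with a window. TAATTA, a core bound by many homeodomain proteins and also its own reverse complement, is in none of the 4. It is in 4.84% of all windows and in 2.12% of those tested genes. These motifs do not overlap each other. The G and C content was 46% for Lhx8, 56.4% for Nkx2-2, 61.6% for Lhx6 and 68% for Dlx1, against a median of 60.4% over 9482 tested genes with a window. A letter match is a description and not a binding site.

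**Figure D2:**
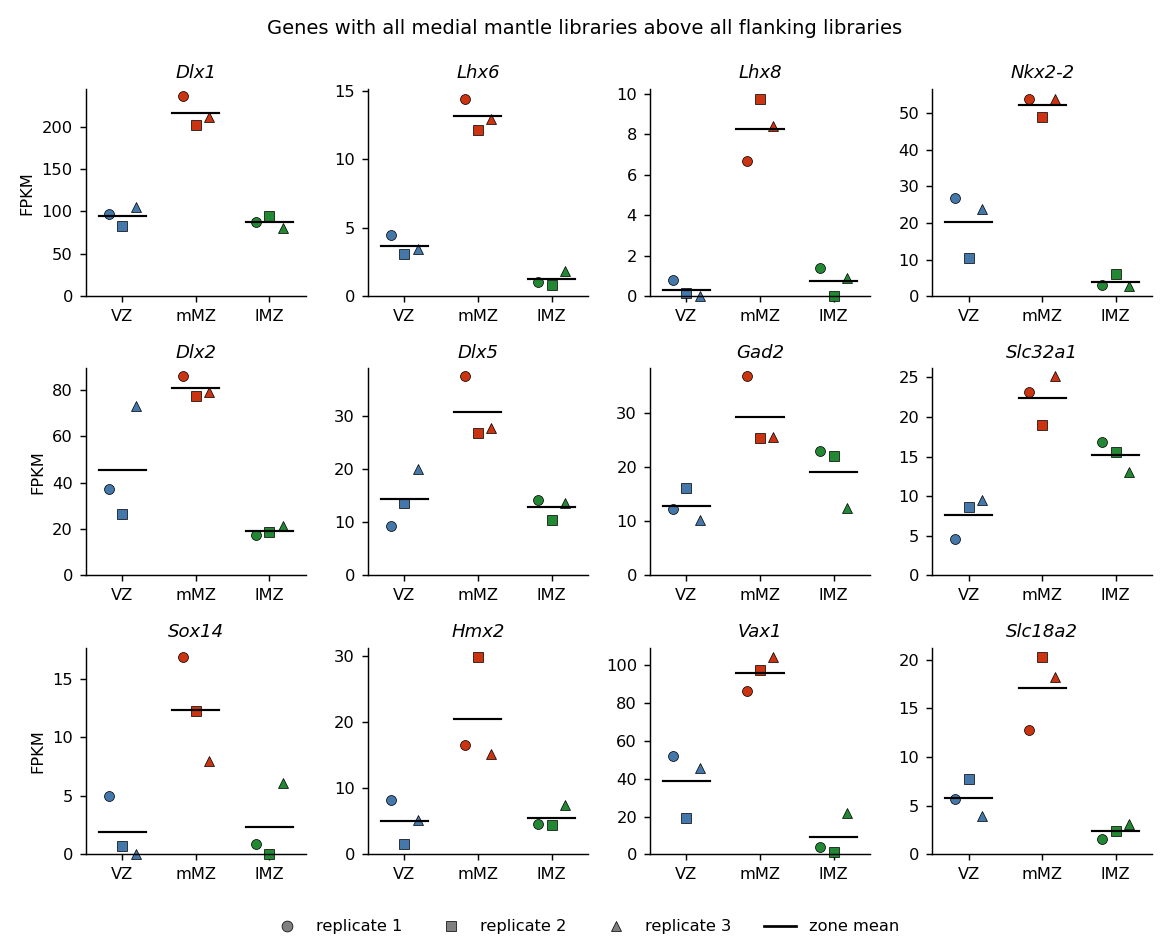
FPKM (vertical axis, from 0) in each library of the ventricular (VZ), medial mantle (mMZ) and lateral mantle (lMZ) zones for 12 genes whose 3 medial libraries all lie above all 6 flanking libraries. Symbols mark the replicate number and bars the zone mean. Only Dlx1, Lhx6, Lhx8 and Nkx2-2 passed the threshold, and Dlx2 shows the shallow ventricular replicate 3 just under the medial libraries.

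In the GABAergic lineage list 3 of 17 tested members (Dlx1, Lhx6 and Lhx8) were higher in the middle contrast and 0 lower. Of all genes 0.0357% were higher and 0.00714% lower. In this list the medial mean lay above both flanks in 15 of 17 members, against 28.8% of all genes. No overlap was seen in 8 of 17, against 2.19%. The median contrast was 1.03, against 0.10 over all genes. Over the alternative settings, 13 to 16 members lay above both flanks, 15 of them without both shallow libraries. The members in view were chosen with earlier results of these data known.

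The other Dlx genes did not pass but had similar profiles. Dlx2 measured 37.5, 26.4 and 73.1 FPKM in the ventricular, 85.97, 77.4 and 79.04 in the medial and 17.5, 18.9 and 21.4 in the lateral libraries (contrast 1.48, adjusted p = 0.151). Dlx5 measured 9.23, 13.6 and 19.99, 37.4, 26.7 and 27.6 and 14.2, 10.4 and 13.7 in the same order (1.14, adjusted p = 0.248). Both had all medial libraries above all flanking ones, and for Dlx2 the shallow ventricular replicate 3 came nearest. Dlx6 instead overlapped the lateral zone, with 25.3, 17.3 and 22.3 in the medial and 20.7, 21.8 and 16.3 in the lateral libraries (0.83, adjusted p = 0.618).

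Genes of GABA handling split in the same way. Gad2, 1 of the enzymes that make GABA, measured 12.2, 16.2 and 10.3 FPKM in the ventricular, 36.9, 25.3 and 25.6 in the medial and 22.9, 22.1 and 12.3 in the lateral libraries (contrast 0.87, adjusted p = 0.417). Slc32a1, which loads GABA into vesicles, measured 4.604, 8.67 and 9.54, 23.1, 18.98 and 25.1 and 16.8, 15.6 and 13.1 (1.01, adjusted p = 0.284). Both had every medial library above every other. Gad1, the other GABA-making enzyme, reached 37.5, 39.1 and 22.6 in the medial and 33.9, 39.4 and 36.4 in the lateral libraries, which overlap. The zinc finger factor Sp8 measured 10.4, 7.93 and 15.7 in the medial libraries and at most 6.64 elsewhere (contrast 1.21, adjusted p = 0.485). Isl1, a LIM-homeodomain factor, measured 34.8, 21.5 and 71.04, 122, 73.2 and 69.7 and 45.6, 47.8 and 43.04. It overlapped the ventricular zone only through the shallow replicate 3. Dlx2, Dlx5, Dlx6, Gad2, Slc32a1 and Sp8 are singled out here after their values were seen.

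The list's 20 members in the table summed to 650 to 857 FPKM in the medial, 281 to 420 in the ventricular and 353 to 414 in the lateral libraries, so the medial sums lay above all flanking ones while the flanks overlapped. Several are also expressed in the neighbouring telencephalon, so its markers are given. The 12 telencephalic and thalamic markers summed to 72.3 to 135 in the ventricular, 81.1 to 124 in the medial and 20.8 to 99.3 in the lateral libraries. Of the medial sums of 81.1, 110 and 124, Lhx2 gave 25.5, 43.1 and 62.9 and Prox1 25.8, 20.98 and 18.3. Of 8 tested markers 4 lay above both flanks, 2 below both and 2 between, against 28.8%, 15.6% and 55.6% of all genes. Their median contrast was 0.47, against 0.10 over all genes, and 0 passed. The part of neighbouring tissue was not tested.

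Tuberal and medial hypothalamic factors had a median contrast of 1.16 over 21 tested members, against 0.10 over all genes. Nkx2-2 was higher, 0 were lower and 20 did not pass, against 0.0357% of all genes higher and 0.00714% lower. The medial mean lay above both flanks in 14 of 21 and below both in 0, and 4 of 21 had no overlap, against 28.8%, 15.6% and 2.19% of all genes. The 4 were Nkx2-2, Vax1, Sox14 and Hmx2. Over the settings, 13 to 16 lay above both, except for 12 of 18 tested with a filter of 5 FPKM in 3 libraries. Isl1 and Six3 belong to this list and to the GABAergic one.

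Vax1, a homeodomain factor of the ventral forebrain, measured 51.9, 19.4 and 45.8 FPKM in the ventricular, 86.5, 97.3 and 104 in the medial and 3.84, 1.56 and 21.9 in the lateral libraries (contrast 2.63 ± 0.59, adjusted p = 0.284). It was the most abundant of these peaks, and lateral replicate 3 stood above its zone. Sox14, an HMG-box factor, measured 4.96, 0.729 and 0, 16.8, 12.2 and 7.94 and 0.878, 0 and 6.12 (2.495, adjusted p = 0.403). Hmx2, a homeodomain factor of the hypothalamus, measured 8.26, 1.55 and 5.23, 16.5, 29.8 and 15.2 and 4.63, 4.48 and 7.54 (1.82, adjusted p = 0.284). In each of these 3 genes the lowest medial library still exceeded the highest flanking one.

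Nr5a1, the nuclear receptor that marks the ventromedial nucleus, measured 9.49, 1.23 and 0 FPKM in the ventricular, 26.3, 21.3 and 3.75 in the medial and 0.445, 0.2399 and 3.35 in the lateral libraries. The deep medial replicates 1 and 2 were far above the rest and the shallow replicate 3 was within the range of the flanks (contrast 2.58, adjusted p = 0.485). Six6 measured 0.06196, 0.0202 and 0, 10.1, 4.19 and 2.01 and 1.59, 0.563 and 2.41 (1.83, adjusted p = 0.284). Hmx3, the neighbour and relative of Hmx2, measured 16.4, 4.77 and 0, 24.2, 32.5 and 13.4 and 5.79, 7.15 and 13.5 (1.81, adjusted p = 0.613). Not all factors of the list peaked. Nkx2-4 stepped down from 78.8, 87.1 and 57.5 in the ventricular to 40.02, 26.8 and 0 in the medial and 0.621, 14.2 and 8.497 in the lateral libraries. Otp, needed for several peptide neuron types, measured 232, 185 and 370.2 in the medial and 393, 116 and 467 in the lateral libraries, which overlap. Nr5a1, Six6, Hmx3, Nkx2-4 and Vax1 were picked after their values were seen.

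**Figure D3:**
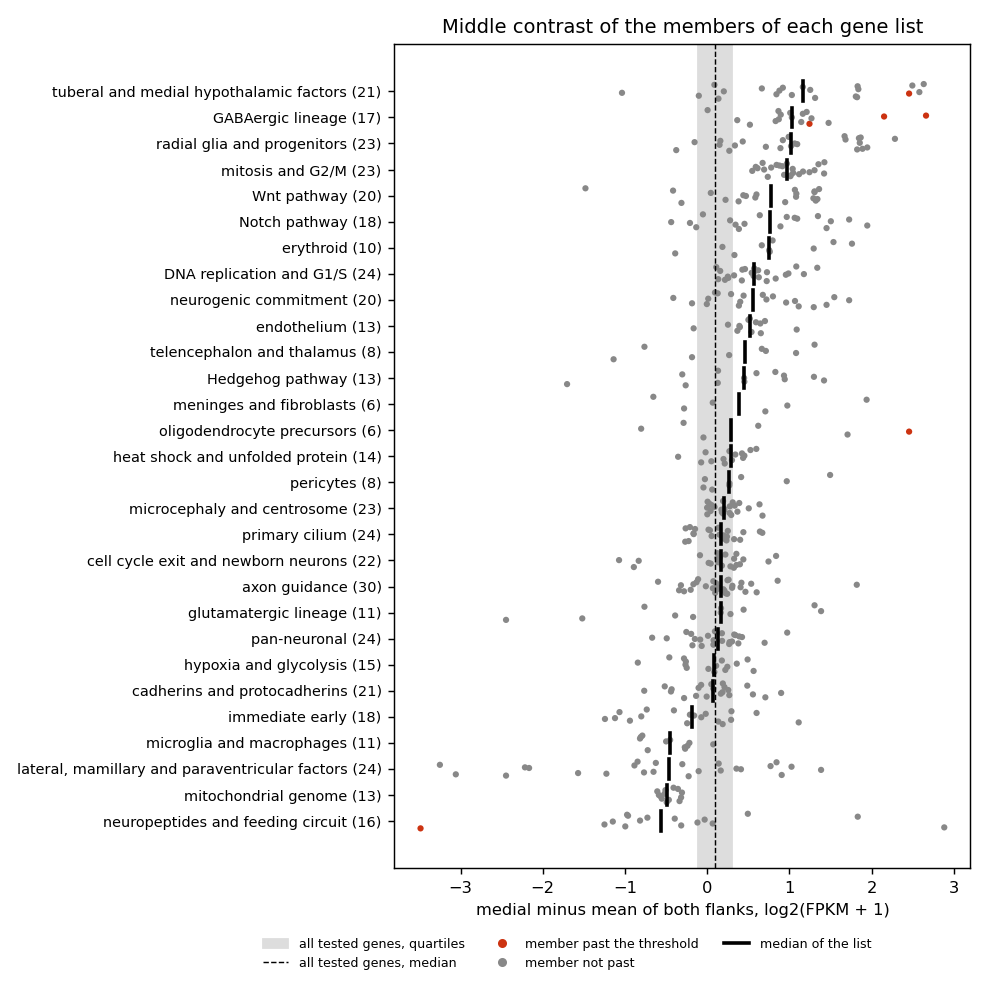
Middle contrast, log2(FPKM + 1), of every tested member of 29 gene lists with at least 6 tested members, without the monoamine list drawn up after values were seen, ordered by the list median (black bar), with the number tested in brackets. The grey band holds the central quartiles of all 14004 genes and the dashed line their median of 0.10. Red points are members past the threshold, and the tuberal, GABAergic, radial glial and mitotic lists have medians near 1.

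The rule for naming peaks also took 6 genes that did not pass, of which Sox14 and Hmx2 are described above. Vgll2, a transcriptional cofactor, measured 12.004, 6.51 and 0 FPKM in the ventricular, 21.6, 31.8 and 21.1 in the medial and 1.36, 0.944 and 2.98 in the lateral libraries (contrast 2.87, adjusted p = 0.304). Nup62cl, a nucleoporin-like gene on the X chromosome, measured 5.73, 2.85 and 0, 17.7, 23.9 and 17.9 and 0.687, 0.446 and 2.22 (3.09, adjusted p = 0.141). Slc30a3, a vesicular zinc transporter, measured 0.266, 1.87 and 0, 6.25, 4.53 and 9.03 and 0.862, 0.834 and 1.04 (2.11, adjusted p = 0.141). All 3 were listed at 0 in the shallow ventricular replicate 3, and all had deep flanking libraries below every medial one. Snora73b, a small nucleolar RNA, measured 0, 5.43 and 0, 28.4, 14.9 and 33.2 and 3.06, 3.11 and 0 (3.53, adjusted p = 0.192). Its value is uncertain, since it is short, belongs to a family of near copies and overlaps Gm17300 on the other strand.

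Genes of monoamine synthesis and transport had a like profile, in a list drawn up after their values were seen. All 6 tested of its 14 members had a medial mean above both flanks, against 28.8% of all genes. No overlap was seen in 4 of 6, against 2.19%, and 0 passed the threshold. As the list was drawn up after its values, setting it against all genes tests nothing. Without a filter on low values 9 of 13 members lay above both flanks and 1 below both, with a median contrast of 0.33 in place of 1.35. Hdc met the filter through its medial libraries. Slc18a2, which packs monoamines into vesicles, measured 5.68, 7.78 and 3.94 FPKM in the ventricular, 12.8, 20.3 and 18.2 in the medial and 1.63, 2.46 and 3.17 in the lateral libraries (contrast 1.92 ± 0.27, adjusted p = 0.0551). Ddc, the decarboxylase of dopamine and serotonin synthesis, measured 3.13, 5.22 and 0, 21.97, 22.9 and 30.2 and 5.47, 9.34 and 14.8 (2.23, adjusted p = 0.301). Hdc, which makes histamine, measured 1.04, 0.19005 and 0, 1.89, 1.23 and 1.18 and 0.124, 0 and 0.189 (0.99, adjusted p = 0.456). Th, the first enzyme of dopamine synthesis, measured 18.8, 13.3 and 10.4 in the medial and 11.3, 7.26 and 12.6 in the lateral libraries, which overlap. Dbh was listed at 0 in all 9 libraries, and Tph2 in the ventricular ones.

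Low points in the middle band were fewer on the unscaled values, and of those named by rule none passed. Uncx, a homeodomain factor of the lateral, mamillary and paraventricular list, measured 94.97, 148 and 76.5 FPKM in the ventricular, 53.6, 47.6 and 46.3 in the medial and 70.1, 78.7 and 83.8 in the lateral libraries. The medial libraries were close together and below all 6 others (contrast -0.85 ± 0.19, adjusted p = 0.284). Ebf3, a helix-loop-helix factor of newborn neurons, measured 52.9, 78.2 and 49.2, 33.1, 25.2 and 24.2 and 74.2, 75.8 and 34.3 (-1.07 ± 0.27, adjusted p = 0.329). Lateral replicate 3 lay just above the medial libraries there. Ccnd2, a cyclin of the G1 phase picked after its values were seen, measured 33.9, 49.7 and 46.6, 20.1, 18.8 and 14.1 and 24.4, 23.2 and 30.5 (-0.89, adjusted p = 0.243).

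Among the named dips, 3 encode adhesion molecules. Cadm2, an immunoglobulin-domain adhesion molecule of axons, measured 6.296, 11.4 and 12.4 FPKM in the ventricular, 4.71, 1.97 and 3.02 in the medial and 15.02, 21.6 and 6.88 in the lateral libraries (contrast -1.59 ± 0.37, adjusted p = 0.301). Ncam2 measured 6.81, 4.95 and 5.27, 2.79, 3.09 and 1.54 and 5.63, 6.09 and 3.89 (-0.91, adjusted p = 0.419). Flrt2, a guidance and adhesion protein, measured 5.099, 5.39 and 15.03, 3.29, 3.32 and 3.15 and 6.35, 5.04 and 4.88 (-0.80, adjusted p = 0.608). In all 3 the medial libraries lay below all others, for Flrt2 with the shallow ventricular replicate 3 far above its zone. No test of adhesion genes as a class was made.

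The remaining named dips had contrasts between -1.32 and -0.69 and adjusted p from 0.179 to 0.582. Ybx2, a nucleic acid binding protein, measured 11.3, 10.9 and 11.3 FPKM in the ventricular, 7.597, 5.36 and 6.73 in the medial and 14.2, 17.4 and 18.4 in the lateral libraries, a narrow spread in every zone. Dixdc1, a Wnt pathway adaptor, measured 13.7, 15.9 and 32.1, 12.02, 11.8 and 8.97 and 23.1, 18.4 and 20.3. Apitd1, a centromere protein gene, measured 5.63, 6.902 and 3.31 in the medial libraries and 8.92 to 13.2 elsewhere. Rpl31-ps14 is a processed pseudogene of a ribosomal protein gene, so its reads may belong to other copies.

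**Figure D4:**
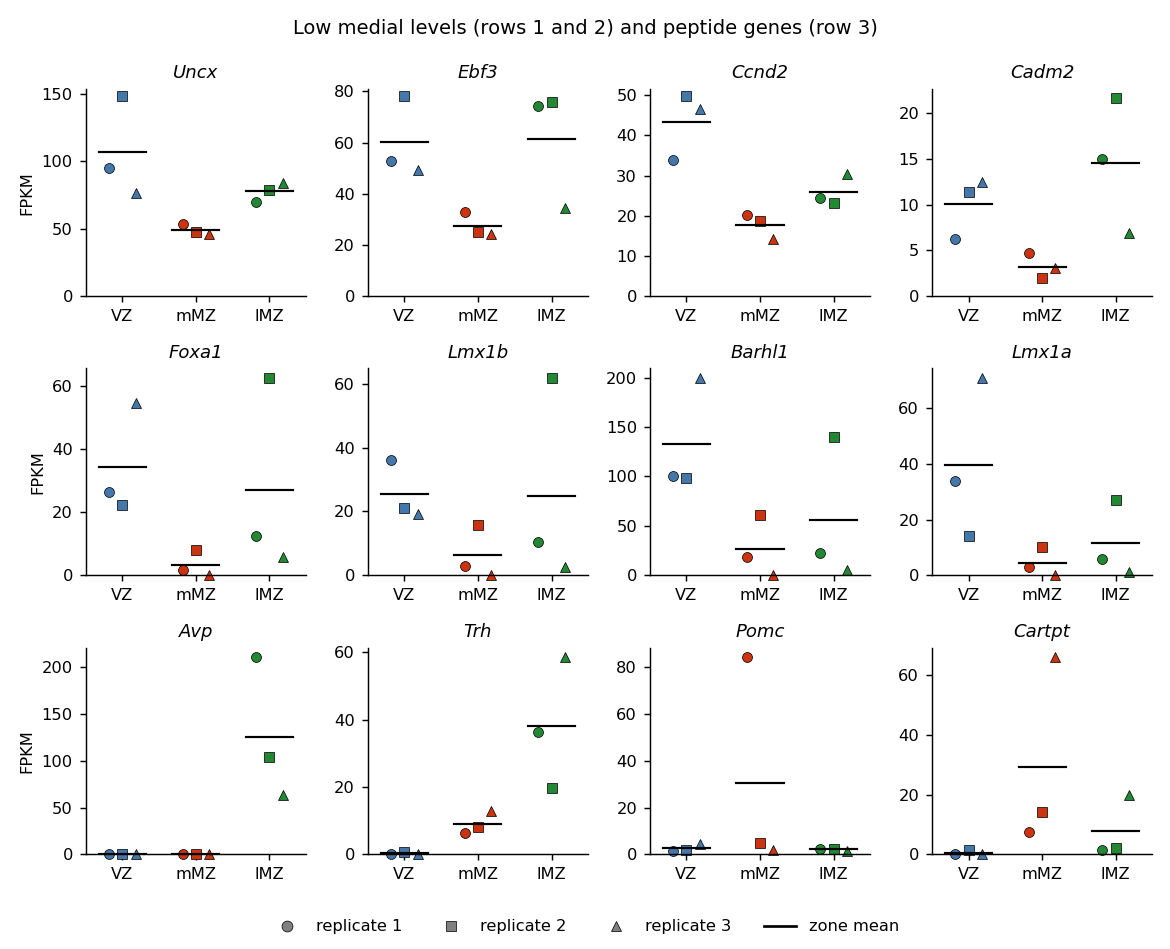
FPKM (vertical axis, from 0) in each library of the ventricular (VZ), medial mantle (mMZ) and lateral mantle (lMZ) zones for 12 genes, with symbols for the replicate number and bars for zone means. The top row holds genes whose medial libraries lie below all others. The middle row holds mamillary genes with a wide lateral spread and a 0 in medial replicate 3, and the bottom row peptide genes, of which Avp is listed at 0 in all medial libraries.

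Of 24 tested members of the list of lateral, mamillary and paraventricular genes 0 passed. Below both flanks lay 9, above both 4 and between them 11, against 15.6%, 28.8% and 55.6% of all genes. A contrast above 0 was found in 9 of 24, against 63.1% of all genes. The median contrast was -0.46. Arnt2, a partner of helix-loop-helix PAS factors and a member named by rule, measured 56.6, 74.6 and 51.7 FPKM in the ventricular, 77.9, 69.2 and 66.5 in the medial and 135, 111 and 101 in the lateral libraries (-0.23, adjusted p = 0.745), and exons of Gm30873 overlap it on the other strand. Foxa1, Lmx1b, Barhl1 and Lmx1a were picked from the list after their values were seen, and none passed. Foxa1, a forkhead factor, measured 26.4, 22.2 and 54.5 FPKM in the ventricular, 1.74, 8.18 and 0 in the medial and 12.47, 62.6 and 5.97 in the lateral libraries (contrast -3.06 ± 0.78, adjusted p = 0.345). Lmx1b, a LIM-homeodomain factor, measured 36.1, 21.1 and 19.4, 2.82, 15.8 and 0 and 10.6, 61.8 and 2.45 (-2.22 ± 0.97, adjusted p = 0.629). Barhl1, a homeodomain factor of the mamillary region, measured 101, 98.6 and 199, 18.6, 61.4 and 0 and 22.2, 139.6 and 4.91 (-2.45 ± 1.26, adjusted p = 0.685). Lmx1a, the relative of Lmx1b, measured 33.9, 14.2 and 70.7, 2.97, 10.3 and 0 and 5.86, 27.1 and 1.25 (-2.17 ± 0.91, adjusted p = 0.622).

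These 4 genes shared a library pattern. In the lateral zone replicate 2 held the highest value of each, several times replicates 1 and 3, and in the medial zone the shallow replicate 3 listed each at 0. Their lateral means thus rest on 1 library, and their medial means include a 0 from the shallow medial replicate 3. That replicate also listed 15 tested genes at 0 that reached 10 FPKM in every other library. The origin of the zeros was not tested. Without medial replicate 3 the contrasts were -2.28 for Foxa1, -1.22 for Lmx1b, -0.74 for Barhl1 and -1.25 for Lmx1a, and the medial mean of Barhl1 then lay above the lateral one by 0.38. Without lateral replicate 2 they were -2.61, -1.66, -1.85 and -1.69 in the same order, and without both shallow libraries -2.09, -1.30, -0.57 and -0.98. The list summed to 418 to 527 FPKM in the medial libraries and to 470 to 1003 in the lateral ones, the highest again in replicate 2.

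Of 16 tested members of the neuropeptide and feeding circuit list, 0 were higher, Avp was lower and 15 did not pass. Of all genes 0.0357% were higher and 0.00714% lower. Between the flanks lay 11 of the 16, against 55.6% of all genes. Against the lateral zone 5 of the 16 were lower, as were 0.543% of all genes. Avp, the vasopressin gene (chromosome 2, 130580620 to 130582554, minus strand), measured 0.399, 0 and 0 FPKM in ventricular tissue, was listed at 0 in all 3 medial ones and measured 210.0, 104 and 63.01 in the lateral ones. It was thus a lateral gene more than a dip. It reached 1 FPKM only in the lateral libraries, so it entered the test through them. Its contrast was -3.49 ± 0.35 (adjusted p = 0.0171), but the difference from the ventricular zone was only -0.16 (adjusted p = 0.889). Avp passed under 12 of 20 settings. Its contrast was -5.45 with a pseudocount of 0.1 and -5.998 with the flanks averaged as FPKM. Trh, the thyrotropin-releasing hormone gene, measured 0.266, 0.785 and 0, 6.24, 8.01 and 12.8 and 36.5, 19.7 and 58.5, a stepwise increase without overlap. Gal, the galanin gene, measured 1.196, 1.18 and 0, 2.52, 2.98 and 3.16 and 17.6, 9.88 and 12.1, with the same order. Pmch, the melanin-concentrating hormone gene, measured 7.31, 12.7 and 0 in the medial and 21.2, 57.3 and 56.1 in the lateral libraries.

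Pomc and Cartpt, of the feeding circuit, had medial means above both flanks with 1 medial library far above the other 2. Pomc, the precursor of melanocortin peptides, measured 1.55, 1.91 and 4.28 FPKM in the ventricular, 84.1, 4.88 and 2.06 in the medial and 2.47, 2.39 and 1.51 in the lateral libraries (contrast 1.83 ± 0.87, adjusted p = 0.663). Without medial replicate 1 the contrast was 0.39. That library stood alone, and the other 2 were within or next to the flanks. The 8 markers of the pituitary primordium, another source of Pomc, summed to at most 0.363 FPKM in any medial library, and 0 of them reached the level for testing. Cartpt measured 0.2299, 1.36 and 0, 7.54, 14.3 and 65.96 and 1.37, 2.28 and 20.1 (2.88 ± 0.79, adjusted p = 0.404), highest in the shallow medial replicate 3.

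Ptx3, a secreted pattern recognition protein (chromosome 3, 66219910 to 66225805, plus strand), passed the contrast without being a peak in the libraries. It measured 38.9, 15.98 and 16.6 FPKM in the ventricular, 28.6, 25.7 and 36.9 in the medial and 0, 0.394 and 0 in the lateral libraries. Medial and ventricular libraries overlapped and only the lateral ones stood apart. The contrast was 2.62 ± 0.31 (adjusted p = 0.0292), with 4.80 against the lateral zone (adjusted p = 0.00038) and 0.44 against the ventricular zone (adjusted p = 0.605). With the flanks averaged as FPKM before the logarithm the contrast was 1.28 in place of 2.62, and with a pseudocount of 0.1 it was 3.97. Ptx3 passed under 7 of 20 settings.

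In the radial glial list 15 of 23 genes lay between the flanks, 6 above both and 2 below both. These counts were not far from the shares of all genes, 55.6%, 28.8% and 15.6%. In the DNA replication list 23 of 24 lay between the flanks. In the mitosis and G2/M list 23 of 23 members had a medial mean between the others, 0 passed the middle contrast and 22 were higher than in the lateral zone, against 3.58% of all genes. Top2a, a topoisomerase of dividing cells, measured 69.4, 43.9 and 172 FPKM in the ventricular, 27.1, 42.3 and 61.1 in the medial and 1.695, 1.52 and 4.53 in the lateral libraries. Medial and ventricular libraries overlapped, and all lateral ones were far lower. Vim, an intermediate filament of radial glia, measured 918, 522 and 899, 555, 481 and 568 and 34.2, 27.1 and 51.4 (contrast 1.67 ± 0.23, adjusted p = 0.0551). Mfng, a glycosyltransferase that modifies Notch receptors, measured 136, 77.9 and 128, 55.3, 53.8 and 70.4 and 2.77, 1.101 and 2.35 (1.73 ± 0.24, adjusted p = 0.0551).

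How near the medial band came to the ventricular zone depended on the scale. A position was taken as the medial mean minus the lateral mean, divided by the ventricular minus the lateral mean, so that 0 is the lateral and 1 the ventricular level. For the 23 mitotic genes the median position was 0.79 on log2(FPKM + 1) and 0.54 on FPKM. For 18 radial glial genes it was 0.86 and 0.55, for 24 genes of DNA replication 0.79 and 0.60, for 15 Notch pathway genes 0.80 and 0.54, and for 15 genes of neurogenic commitment 0.77 and 0.48. On FPKM, then, medial levels were about midway, while on the log2 scale they were nearer to the ventricular zone. The contrast of the mitotic list followed: its median was 0.97 with the flanks averaged on the log2 scale and 0.10 with the flanks averaged as FPKM.

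Over all 3266 genes whose flanks differed by at least 1 on the log2 scale, the median position of the 1598 with a higher ventricular mean was 0.70 on log2 and 0.52 on FPKM. For the 1668 with a higher lateral mean it was 0.50 and 0.67. Pan-neuronal genes had a median of 0.43 on log2 and 0.58 on FPKM over 18 members. In each set the medial mean lay nearer to the higher flank on log2 than on FPKM, as a logarithm gives for any level between them.

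**Figure D5:**
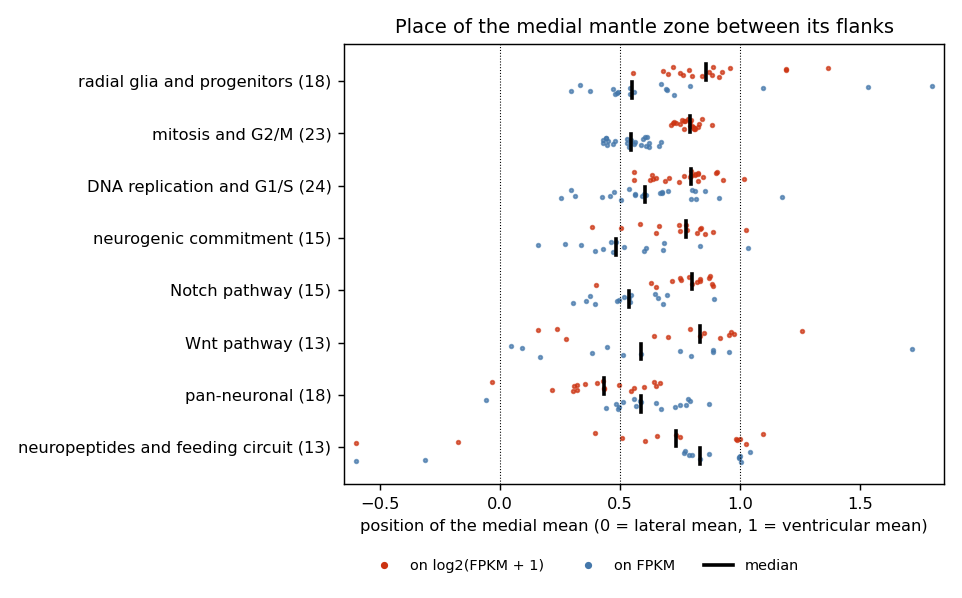
Position of the medial mean between the lateral (0) and ventricular (1) means for members of 8 gene lists whose flanks differ by at least 1 on the log2 scale, computed on log2(FPKM + 1) (red) and on FPKM (blue), with list medians as black bars. Values beyond the axis are drawn at -0.6 and 1.8. The progenitor lists shift from about 0.8 in red to about 0.5 in blue, and pan-neuronal genes shift the other way.

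Some progenitor genes lay above both flanks, as did 6 of 23 in the radial glial list, against 28.8% of all genes. Sox1, an HMG-box factor of neural progenitors, measured 25.6, 14.2 and 31.5 FPKM in the ventricular, 36.3, 38.1 and 32.1 in the medial and 1.09, 0.371 and 3.64 in the lateral libraries (contrast 2.28 ± 0.38, adjusted p = 0.138). Sox3, its relative, measured 37.97, 19.1 and 37.9, 50.4, 60.2 and 48.6 and 8.17, 2.19 and 10.6 (1.87, adjusted p = 0.248). Against the ventricular zone alone the differences were 0.63 for Sox1 and 0.79 for Sox3, and neither passed. Against the lateral zone they were 3.94 and 2.95. Sox2, the third of that family, had 128, 72.8 and 211 and 112, 104.8 and 115 in the ventricular and medial libraries, which overlap. Neurog3, a proneural factor, was low but even in the medial band, with 2.47, 2.44 and 2.53 there, 0.943, 0.464 and 0 in the ventricular libraries and 0 in the lateral ones (contrast 1.55, adjusted p = 0.141). It reached 1 FPKM only in the medial libraries, so it entered the test through them. Dbx1, a homeodomain factor of progenitors, lost most of its FPKM between the ventricular and medial bands, with 124, 73.97 and 181, 23.02, 21.6 and 16.2 and 0, 0.0694 and 0.109 (position 0.63 on log2, where the second step is the larger, and 0.16 on FPKM). These 5 genes were picked after their values were seen.

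Cenpj, the centrosomal gene in the title of the study, lay midway on the log2 scale. It measured 6.57, 4.67 and 6.83 FPKM in the ventricular, 3.59, 3.41 and 2.901 in the medial and 1.41, 1.94 and 1.597 in the lateral libraries, in 3 steps without overlap. Its contrast was 0.00 ± 0.23 (adjusted p = 0.999), with a position of 0.50 on log2 and 0.38 on FPKM.

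Markers of other cells were also compared between bands. Of 13 tested endothelial markers, 12 had a medial mean above both flanks, against 28.8% of all genes. That count was not stable, at 6 to 13 over the settings that kept the filter. The median contrast of these markers was 0.52, against 0.10 over all genes, and 0 passed the threshold. Their 14 markers summed to 49.3 to 100.3 FPKM in the medial, 17.1 to 79.2 in the ventricular and 26.0 to 71.4 in the lateral libraries, which overlap, and Slco1a4 was at 0 throughout. The 13 erythroid markers in the table, globins among them, summed to 1793 to 3360 in the medial, 2517 to 2943 in the ventricular and 466 to 825 in the lateral libraries. Of 11 tested microglial markers 7 lay below both flanks, against 15.6% of all genes, and 1 to 8 did over the same settings. The microglial sums were 15.2 to 35.8 in the medial, 14.1 to 29.2 in the ventricular and 48.2 to 67.3 in the lateral libraries. Medial and ventricular sums overlapped, and the median difference of the tested markers from the ventricular zone was -0.01. Of 13 genes of the mitochondrial genome 11 lay below both flanks (8 to 13 over the same settings), against 15.6% of all genes, with a median contrast of -0.49. These sums were 20548 to 37039 FPKM in the medial, 23344 to 43453 in the ventricular and 38726 to 43391 in the lateral libraries. The part of vessels, blood, microglia and mitochondrial RNA in the profiles above was not tested.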

How the data were processed

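The authors deposited a table of FPKM values. Bowtie2 2.1.0 and mm10 are named in the submitters' processing notes, and the sources used here do not give the program that made the FPKM. Of 38370 rows, 42 were identical to another and 133 repeated a symbol with a lower mean, and these were dropped, and 34293 of 38195 symbols matched the reference names. The test took the 14004 genes that reached 1 FPKM in 3 or more libraries and left out 24191. FPKM are not counts, so limma 3.58.1 in R 4.3.3 was fitted to log2(FPKM + 1), which understates the change of low genes, with 1 mean per zone, all 9 libraries and an intensity trend. Tests were two-sided, with Benjamini-Hochberg adjustment over all tested genes and a threshold of 0.05. The fit was tested on simulated data. Depth was estimated from the spacing of low values in genes of at least 1500 bp.

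The rule for naming genes took up to 10 peaks and 10 dips without overlap between medial and flanking libraries, with a mean of at least 5 FPKM, by the smaller of the differences from both flanks, and filled places with genes that did not pass. It skipped predicted genes, and took up to 4 called and 2 other members per list and Cenpj. Other genes were picked after their values were seen. The members, 32 gene lists and tests were chosen with earlier results of these data known. Gene positions are from GENCODE M21 on GRCm38 (mm10), and promoter windows from RefSeq. Some single genes are not reported here. Alternatives covered the pseudocount, filter, scaling, moderation, weights, a replicate block, the averaging of flanks and each left-out library.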

Additional observations from a re-analysis of the deposited data

How the results depend on the processing

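The counts given are of genes past the threshold in the middle contrast, with those above or below both flanks as peaks and dips, and of genes past it against both flanks. A pseudocount of 0.1 left 1 higher and 0 lower gene (1 peak, 0 dips), and no filter left 0 of either (0 peaks, 0 dips) among 21707 genes, with 1363 at an unadjusted p under 0.05 in limma. Trimmed mean scaling left 2 higher genes, both peaks. Pooling the flanks as 1 group left 1 higher and 0 lower (1 peak, 0 dips). Array weights gave 462 higher and 98 lower genes, 276 peaks and 77 dips, and 137 above and 29 below both flanks past the threshold. Those weights were 3.67, 0.473 and 0.108 for ventricular replicates 1 to 3 and 0.230 for medial replicate 3, against 1.17 to 2.69 elsewhere. The ventricular mean in that setting thus rests mainly on replicate 1. Without both shallow libraries 7 genes were lower, all 7 dips, and 3 of the 6 reported genes (Dlx1, Lhx6 and Avp) were among its 12. A filter of 5 FPKM and quantile normalization each gave 2 genes past the threshold above both flanks. Leaving out single libraries gave 0 to 31 higher genes, 0 to 1 lower, 0 to 23 peaks, 0 to 1 dips, and 0 to 8 above and 0 to 1 below both flanks. A lone pair of libraries in a zone is assumed to vary like the others. The causes were not tested.

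With the replicate number as a block, 7 genes were higher and 1 lower, 3 of them peaks, and 3 of the 6 reported genes were among them. Same-numbered libraries correlated in their deviations from the zone means at -0.0984 to 0.249, not all above 0.1, so the numbers were not taken to pair the libraries. No direction of a called value was reversed under any setting. Quantile and trimmed mean scaling moved the median contrast of all genes from 0.10 to 0.01. Genes with a medial mean below both flanks then outnumbered those above both. Depth limits low genes in ventricular replicate 3 and medial replicate 3.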
